A study of Mus musculus with 12 samples.

Results

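The genes described here encode the proteasome, the protease that breaks down ubiquitin-tagged proteins. Members were all genes in the deposited tables whose mouse symbol begins with Psma, Psmb, Psmc or Psmd followed by a digit, which gave 39 of 9621 listed genes. They comprise 8 genes of the alpha rings of the core particle, 4 non-catalytic genes of its beta rings, 3 constitutive catalytic and 3 inducible catalytic beta genes, the 6 genes of the ATPase ring, 3 further genes of the base, 8 lid genes and 3 genes for chaperones of base assembly. The remaining member, Psmc3ip, encodes a meiotic recombination protein named after the ATPase it binds. It is no proteasome subunit, but it meets the rule and stays in the counts over all 39. Values came from RAW264 cells, a transformed mouse macrophage line, with 2 biological replicates in each of 6 groups. Cells were left untreated (basal), stimulated for 30 min with 100 ng/ml lipopolysaccharide (LPS, a bacterial cell wall component), or treated for 30 min with both LPS and the synthetic glucocorticoid dexamethasone (DEX, 10 µM). All groups, basal included, received cycloheximide, a blocker of translation elongation, at 100 µg/ml before extraction. Each treatment was measured as mRNA and as ribosome-protected fragments (footprints), which makes 12 libraries from a single line.

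The proteasome consists of a barrel, the 20S core, capped by a regulatory particle, the 19S. The outer alpha rings of the core gate its entrance, and the inner beta rings carry the proteolytic sites. In the 19S the ATPase ring unfolds substrates and threads them into the core, while other base subunits bind ubiquitin and the lid removes it. In macrophages the proteasome also degrades the NF-kB inhibitor IkBα after LPS, and the inducible catalytic subunits shape peptides for class I antigen presentation.

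Levels are given as CPM, a gene's reads scaled to the total reads of its library, with no scaling by gene length, so they are compared within a gene and not between genes. Libraries held 821946 to 2529666 reads, and every member had at least 21 reads in every library. The 2 footprint libraries with LPS held the fewest, 829415 and 821946, against 1310291 to 1833560 in the other footprint libraries. The part of this depth in the footprint results was not tested. All 12 macrophage markers examined were listed, with summed levels of 5563 to 6279 CPM in the mRNA libraries and 7393 to 8323 CPM in the footprint libraries. Among mRNA libraries, that of basal replicate 1 differed most from the rest, with Spearman correlations across genes of 0.781 to 0.831 against 0.894 to 0.98 among the others. Of 7 epithelial markers 2 were listed, with a sum of 2032 CPM in that library, 2.17 to 6.72 CPM in the other mRNA libraries and 17.5 to 75.4 CPM in footprints. Changes named below that rest on basal mRNA were therefore also computed without that library. Of 5 fibroblast markers only Col3a1 was listed, and its mRNA measured 3.39 to 16.2 CPM in basal cells, 46.7 to 51.4 CPM with LPS and 61.6 to 75.1 CPM with LPS + DEX. Its footprints measured 115 to 142 CPM, 60.8 to 65.1 CPM and 128 to 134 CPM in the same order, lowest with LPS. The part of these signals in the results was not tested. Of the T cell, B cell and endothelial markers (3 each) 0 were listed. Proteasome genes have processed pseudogenes in the mouse genome, and the assignment of shared reads is not given in the sources used here. Single values are uncertain to that extent. In bulk libraries a lower level in all cells and a low level in some cells cannot be told apart.

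Promoter windows from RefSeq (GRCm38.p6, from 250 bases before to 50 after a gene's start) matched 32 of the 39 members. The 250 bases before the start are shown for Psma3, Psmb6, Psmc6 and Psmd2, chosen after their values were seen because each led a change in mRNA, footprints or their ratio described below. They lie at chr12:70974373-70974622, chr11:70525107-70525356, chr14:45329574-45329823 and chr16:20651402-20651651, all on the plus strand. Capitals mark a CCAAT box in Psma3, the core TGACNNNGC of the antioxidant response element in Psmb6 and, on the opposite strand, in Psmc6, and the ETS site CCGGAAG in Psmc6 and, on the opposite strand, in Psmd2.
Psma3: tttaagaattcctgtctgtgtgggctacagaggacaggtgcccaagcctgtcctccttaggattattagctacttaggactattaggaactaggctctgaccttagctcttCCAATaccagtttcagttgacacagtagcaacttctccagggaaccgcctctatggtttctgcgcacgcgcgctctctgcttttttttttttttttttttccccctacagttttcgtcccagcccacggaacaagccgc
Psmb6: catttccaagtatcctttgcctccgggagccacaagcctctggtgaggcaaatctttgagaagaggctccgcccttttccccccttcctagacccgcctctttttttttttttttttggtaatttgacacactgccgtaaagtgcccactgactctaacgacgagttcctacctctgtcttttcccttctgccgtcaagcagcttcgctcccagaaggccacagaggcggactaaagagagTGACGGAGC
Psmc6: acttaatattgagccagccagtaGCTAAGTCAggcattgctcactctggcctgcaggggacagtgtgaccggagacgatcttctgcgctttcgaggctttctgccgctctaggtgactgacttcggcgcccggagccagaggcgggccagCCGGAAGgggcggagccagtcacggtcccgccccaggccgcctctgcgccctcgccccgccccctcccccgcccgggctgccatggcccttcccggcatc
Psmd2: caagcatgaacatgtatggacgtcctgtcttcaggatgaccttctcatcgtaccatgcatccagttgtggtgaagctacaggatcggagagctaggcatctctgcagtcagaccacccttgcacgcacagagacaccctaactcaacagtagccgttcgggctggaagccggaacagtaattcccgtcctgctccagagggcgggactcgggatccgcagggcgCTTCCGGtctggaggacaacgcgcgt
The antioxidant response element is bound by Nrf1, the transcription factor that raises proteasome genes when proteasome activity falls. Searched on both strands of the 300-base windows, its core was found in 5 of the 32 members (15.6%; Psmb5, Psmb6, Psmc6, Psmd9 and Psmd12) and in 16.9% of the 7378 listed genes with a window. The ETS site was found in 11 members (34.4%) and 22.9% of listed genes, and the CCAAT box in 13 members (40.6%) and 42.9%. The interferon response element (GAAA, any 2 bases, GAAA) was found in 3 members (9.38%; Psmb3, Psmd4 and Psmd9) and 3.58% of listed genes, and the GC box GGGCGG in 19 members (59.4%) and 70.5%. The NF-kB site (GGGA, any base, TTTCC) was found in 0 members and 0.488% of listed genes. In all, 16 motifs were searched, and those given here were picked after the matches were seen, so these shares are a description.

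Proteasome genes together held 0.779% to 1.04% of the reads of a library. Summed over the 39 genes, mRNA measured 8489 and 8957 CPM in basal cells, 8450 and 7929 CPM with LPS, and 8097 and 7788 CPM with LPS + DEX. Both basal libraries were above the other 4 mRNA libraries, the lower of them by a small margin. Summed footprints measured 10398 and 10164 CPM in basal cells, 10102 and 10238 CPM with LPS, and 9628 and 9540 CPM with LPS + DEX. Basal and LPS footprints overlapped, and both LPS + DEX libraries were below the other 4. Between the 2 libraries of a group, a member differed by a median of 0.09 to 0.21 on the log2 scale, depending on the group. Changes were tested with limma on log2(CPM + 1), adjusted over all genes tested, and a gene was called at an adjusted p under 0.05.

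**Figure D1:**
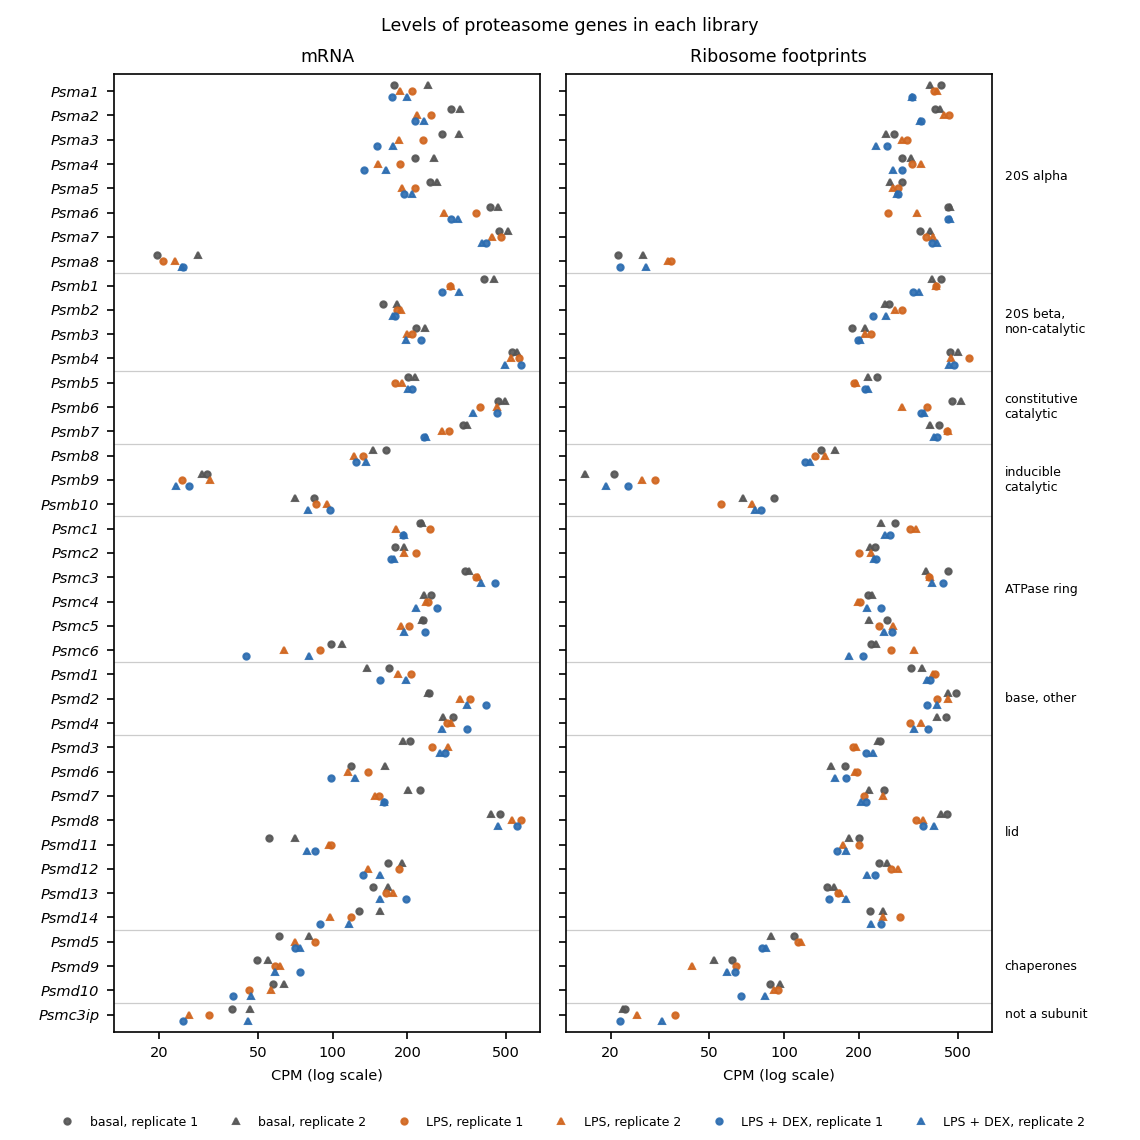
Level of each of the 39 genes in CPM (log axis), mRNA left and footprints right, with 1 point per library, coloured by treatment, circles for replicate 1 and triangles for replicate 2, genes grouped by role. Every gene was detected in all 12 libraries, and in mRNA the basal points of Psma3 lie to the right of its LPS and LPS + DEX points while those of Psmd2 lie to the left.

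After LPS, mRNA of 1 of the 39 members was called as lower, against 10.7% of the 9277 genes tested (9.03% higher and 1.68% lower). That gene was Psmb1, a non-catalytic beta subunit, at 407 and 446 CPM in basal cells, 297 and 300.5 CPM with LPS, and 277 and 322 CPM with LPS + DEX. Both basal libraries were above the other 4. Its mRNA fell by 0.51 ± 0.13 (SE) on the log2 scale with LPS (adjusted p = 0.0445), a call that was lost when any 1 of the 6 mRNA libraries was left out (-0.58 to -0.45; -0.58 without basal replicate 1). Without basal replicate 2 the count was 2, 1 higher and 1 lower. The median member changed by -0.11 and the median gene by 0.26. With median-of-ratios scaling these medians became -0.37 and 0.01, and 8 members were called, all lower: Psma2, Psma3, Psma4, Psma5, Psma6, Psmb1, Psmb7 and Psmd7. Over all genes that scaling called 2.05% higher and 3.58% lower. Of those 8, 5 encode alpha subunits. With total-read scaling, the median log2 change by role was -0.37 for the 8 alpha genes, -0.06 for the ATPase ring and -0.01 for the lid. For the 3 base genes without ATPase activity it was 0.34. With median-of-ratios scaling these role medians became -0.64, -0.32, -0.27 and 0.08 in the same order.

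With LPS + DEX against basal, 7 members were called in mRNA, 2 higher and 5 lower, against 22.7% of all genes (18.5% higher and 4.23% lower). The 5 that fell were the alpha genes Psma2, Psma3 and Psma4, the beta gene Psmb1 and Psmb7, which encodes the trypsin-like catalytic subunit. Psma3 measured 276 and 324 CPM in basal cells, 232 and 185 CPM with LPS, and 151 and 176 CPM with LPS + DEX. No LPS or LPS + DEX library reached the lower basal value. The fall with LPS + DEX was 0.87 ± 0.16 on the log2 scale (adjusted p = 0.0126; -0.98 without basal replicate 1), and the call was lost only without LPS + DEX replicate 1 (range of values -0.98 to -0.75). Psma4 measured 216 and 257 CPM in basal cells, 186 and 152 CPM with LPS, and 134 and 164 CPM with LPS + DEX, a change of -0.66 ± 0.17 against basal (adjusted p = 0.0315). Psmb7 went from 335 and 348 CPM in basal cells to 234 and 238 CPM with LPS + DEX, with LPS between at 295 and 275 CPM (-0.53 ± 0.12, adjusted p = 0.0187). Both of these calls were lost without basal replicate 2 or either LPS + DEX library (-0.81 to -0.52 and -0.56 to -0.50). Psmb1 changed by -0.51 ± 0.13 (adjusted p = 0.027), lost without basal replicate 2, either LPS library or LPS + DEX replicate 1 (-0.62 to -0.40). Psma2, at 300.3 and 326 CPM in basal cells, 249 and 218 CPM with LPS and 215 and 233 CPM with LPS + DEX, changed by -0.48 ± 0.13 (adjusted p = 0.0358), lost without any 1 of the 6 libraries (-0.54 to -0.42).

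The 2 members whose mRNA rose with LPS + DEX belong to the 19S. Psmd2, the base scaffold subunit also known as Rpn1, measured 245 and 241 CPM in basal cells, 358 and 326 CPM with LPS, and 414 and 349 CPM with LPS + DEX, so all 4 treated libraries were above both basal ones. The change with LPS + DEX was 0.64 ± 0.13 (adjusted p = 0.0153; 0.65 without basal replicate 1), and the call was lost without LPS + DEX replicate 1 (range 0.52 to 0.77). Psmd3, a lid subunit, measured 205 and 192 CPM in basal cells, 251 and 292 CPM with LPS, and 283 and 270.3 CPM with LPS + DEX (0.48 ± 0.13, adjusted p = 0.0365). Its call was lost without either basal or either LPS + DEX library (0.43 to 0.53). With median-of-ratios scaling neither was called (0.35 for Psmd2 and 0.19 for Psmd3), and 13 members were called, all lower, against 7.63% of all genes higher and 9.02% lower. The median of the 3 base genes was 0.19 with total-read scaling and -0.11 with median-of-ratios scaling, so its direction depends on the scaling, while that of the alpha genes was -0.41 and -0.71. The median member changed by -0.15 and -0.45 under the same scalings and the median gene by 0.28 and -0.01. The count of called members was 0 without LPS + DEX replicate 1, 2 without basal replicate 2 and 4 without LPS + DEX replicate 2. Without basal replicate 1 it was 5, 1 higher and 4 lower, with Psma2 (-0.54) and Psmd3 (0.53) no longer called. LPS and LPS + DEX were compared with the same basal libraries, so the changes of a gene in both are not independent.

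Between LPS + DEX and LPS, no member was called in mRNA and 0% of all genes were. At an unadjusted p under 0.05 there were also 0 members, and 0 were called when the recovered reads were fitted with limma-voom. Members changed by -0.34 to 0.21 in this comparison, with a median of -0.06.

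**Figure D2:**
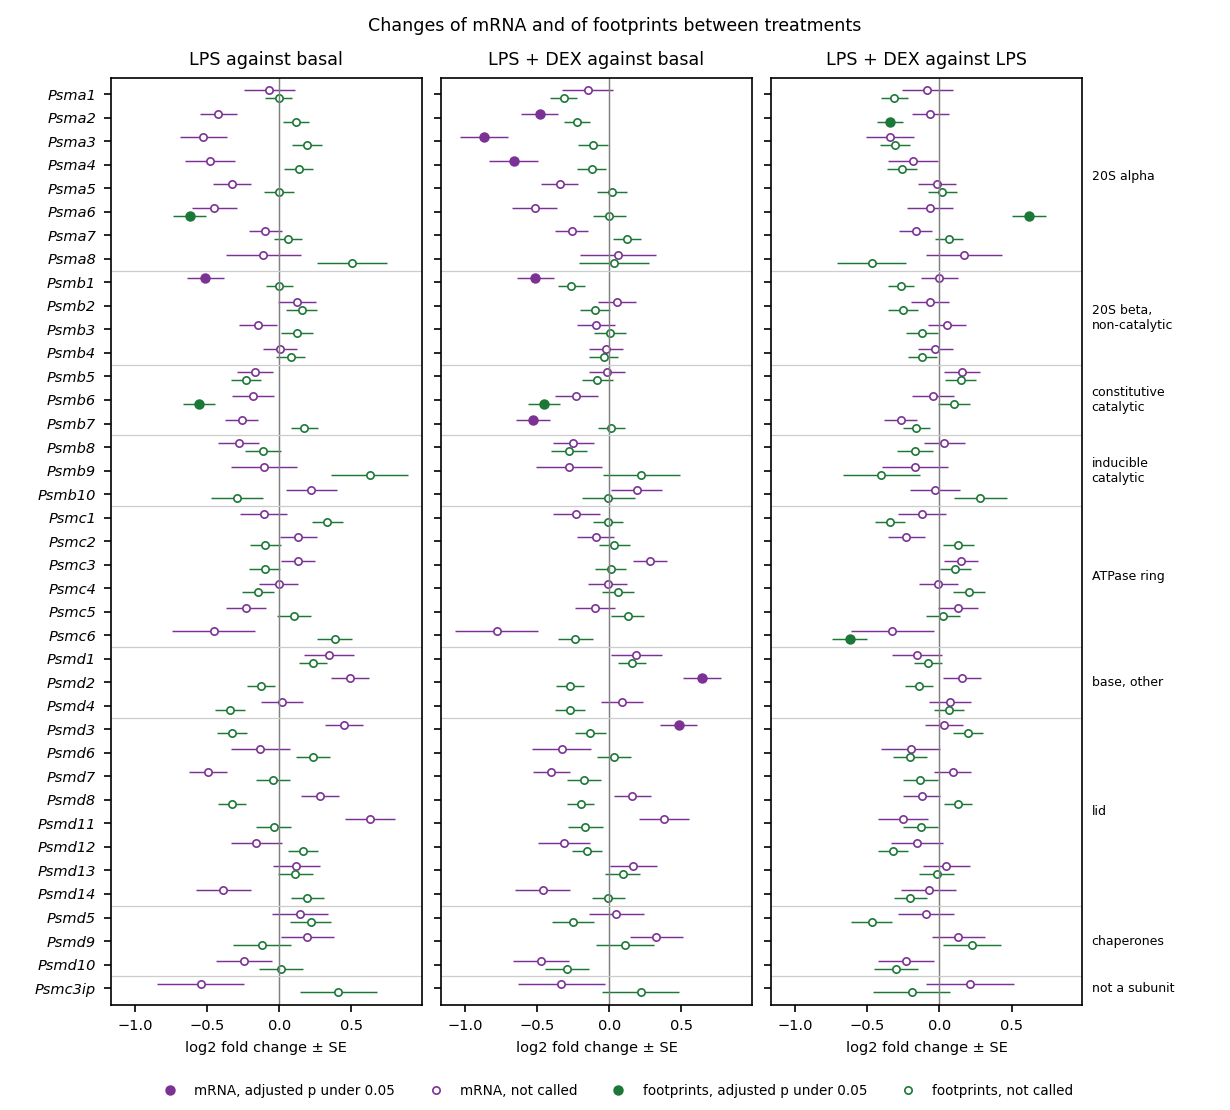
Log2 change of mRNA (purple) and footprints (green) with its standard error for each gene, in the 3 comparisons between treatments, filled where the limma adjusted p was under 0.05. Against basal, purple points of most alpha genes lie left of 0 with green points nearer 0, and for LPS + DEX against LPS filled points are green only (Psma2, Psma6 and Psmc6).

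In footprints, 2 of the 39 members were called lower with LPS and 0 higher, against 7.62% of the 8847 genes tested (3.30% higher and 4.32% lower). Psma6, an alpha subunit, measured 457 and 464 CPM in basal cells, 262 and 342 CPM with LPS, and 455 and 466 CPM with LPS + DEX. Both LPS libraries were below the other 4, which lay close together. The fall with LPS was 0.62 ± 0.12 on the log2 scale (adjusted p = 0.00448), lost without LPS replicate 1 (range -0.81 to -0.43). Its mRNA measured 429 and 463 CPM in basal cells, 376 and 282 CPM with LPS, and 301 and 321 CPM with LPS + DEX. Psma6 is the neighbour of Nfkbia, which encodes IkBα, in RefSeq gene order. Psmb6, the caspase-like catalytic subunit, measured 472 and 516 CPM of footprints in basal cells, 377 and 298 CPM with LPS, and 354 and 366 CPM with LPS + DEX. Both basal libraries were the highest. It fell by 0.56 ± 0.11 with LPS (adjusted p = 0.00878), lost without LPS replicate 2 (range -0.73 to -0.39), where the count of called members was 1. With median-of-ratios scaling 4 members were called, these 2 lower and the ATPase genes Psmc1 and Psmc6 higher, against 4.35% of all genes higher and 3.13% lower.

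With LPS + DEX against basal, Psmb6 was the 1 member called in footprints, against 4.63% of all genes (1.77% higher and 2.86% lower). It fell by 0.45 ± 0.11 (adjusted p = 0.0347), and the call was lost with median-of-ratios scaling (-0.41) and without basal replicate 2 or either LPS + DEX library (-0.52 to -0.39). The count was 0 without either LPS + DEX library. Its mRNA, at 466 and 497 CPM in basal cells, 391 and 458 CPM with LPS and 457 and 369 CPM with LPS + DEX, changed by -0.18 ± 0.15 with LPS and by -0.23 ± 0.15 with LPS + DEX (adjusted p = 0.425 and 0.289).

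Between LPS + DEX and LPS, 3 members were called in footprints, 1 higher and 2 lower, against 6.69% of all genes (3.14% higher and 3.55% lower). Psma6 was higher with DEX by 0.62 ± 0.12 (adjusted p = 0.00501), lost without LPS replicate 1 or either LPS + DEX library (0.43 to 0.81). Changes with LPS against basal and with LPS + DEX against LPS share the same LPS libraries. Those of a gene in both, such as Psma6, are therefore not independent. Psmc6, an ATPase subunit, measured 224 and 234 CPM in basal cells, 269 and 333 CPM with LPS, and 207 and 182 CPM with LPS + DEX. Both LPS libraries were the highest of the 6. The change with DEX was -0.62 ± 0.12 (adjusted p = 0.0073), lost without LPS replicate 2 or either LPS + DEX library (-0.78 to -0.47). Psma2, at 405 and 425 CPM in basal cells, 459 and 440 CPM with LPS and 356 and 353 CPM with LPS + DEX, changed by -0.34 ± 0.09 (adjusted p = 0.0369), lost without any of the 4 LPS and LPS + DEX libraries (-0.37 to -0.31). The count of called members was 8 without either basal library, 1 without either LPS library and 0 without either LPS + DEX library. The median member changed by -0.13 and the median gene by 0.02. The 8 alpha genes had a median of -0.28, Psma6 among them at 0.62.

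**Figure D3:**
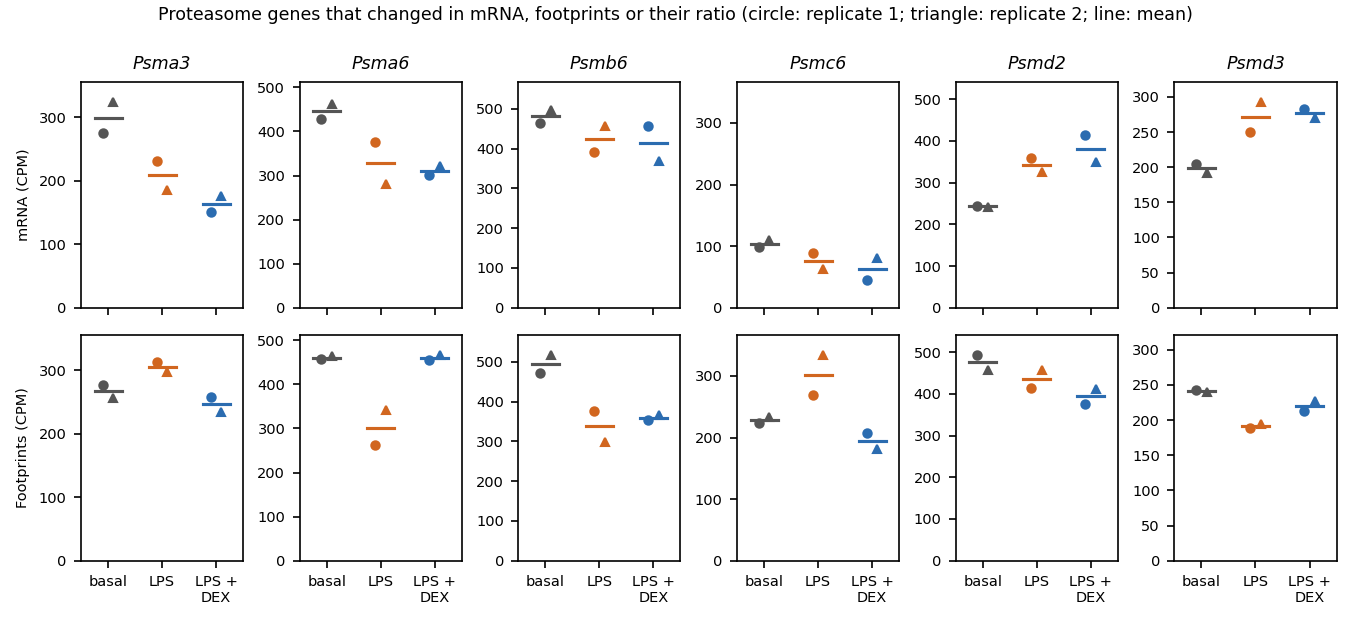
CPM in each library (circles replicate 1, triangles replicate 2, lines group means) for 6 genes with called changes, mRNA above and footprints below, axes starting at 0. Psma3 mRNA falls from basal to LPS + DEX with footprints of 235 to 313 CPM throughout, Psmd2 mRNA is higher in all treated libraries, and Psma6 footprints are lower in the LPS libraries only.

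The inducible catalytic subunits Psmb8, Psmb9 and Psmb10 replace Psmb5, Psmb6 and Psmb7 in the immunoproteasome, and Psmb8 and Psmb9 lie on either side of the peptide transporter gene Tap1. None of the 3 was called in any of the 9 comparisons between treatments with total-read scaling. With median-of-ratios scaling Psmb8 mRNA was called lower with LPS + DEX against basal (-0.54). In mRNA, Psmb8 measured 164 and 146 CPM in basal cells, 132 and 122 CPM with LPS, and 125 and 136 CPM with LPS + DEX. Psmb9 measured 31.2 and 29.8 CPM, 24.8 and 32.1 CPM, and 26.5 and 23.5 CPM in the same order, and Psmb10 84.1 and 70.9 CPM, 85.7 and 94.9 CPM, and 97.6 and 79.8 CPM. Their log2 changes with LPS were -0.28 ± 0.14, -0.11 ± 0.23 and 0.22 ± 0.18 (adjusted p = 0.219, 0.78 and 0.426). Psmb8 treated libraries were all below the basal ones, while those of Psmb9 with LPS and of Psmb10 with LPS + DEX overlapped basal values. In footprints, Psmb9 measured 20.6 and 15.8 CPM in basal cells, 30.1 and 26.8 CPM with LPS, and 23.6 and 19.1 CPM with LPS + DEX, a change with LPS of 0.63 ± 0.27 (adjusted p = 0.178). Psmb8 footprints measured 141 and 160.5 CPM, 133 and 146 CPM, and 121 and 127 CPM, and those of Psmb10 90.8 and 68.4 CPM, 55.5 and 74.2 CPM, and 80.4 and 76.4 CPM. Among the constitutive catalytic genes, Psmb5, the chymotrypsin-like subunit, measured 200.7 and 215 CPM of mRNA in basal cells, 178 and 191 CPM with LPS and 209 and 202 CPM with LPS + DEX. It was not called either, at -0.17 ± 0.12 in mRNA and -0.23 ± 0.11 in footprints with LPS (adjusted p = 0.384 and 0.216). Whether inducible and constitutive genes differed in their change was not tested.

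The change of the footprint-to-mRNA ratio was tested in 1 fit over all 12 libraries. With LPS, 7 members were called, 3 higher and 4 lower, against 16.6% of the 9412 genes tested (3.08% higher and 13.6% lower). The 3 that rose were core genes: Psma3 by 0.72 ± 0.20, Psma2 by 0.54 ± 0.15 and Psmb1 by 0.51 ± 0.15 on the log2 scale (adjusted p = 0.0262, 0.0328 and 0.0392). The 4 that fell were 19S genes: Psmd3 by 0.78 ± 0.16, Psmd11 by 0.67 ± 0.21, Psmd2 by 0.62 ± 0.16 and Psmd8 by 0.61 ± 0.16 (adjusted p = 0.00792, 0.0483, 0.0229 and 0.0225). The 19S genes did not fall as a whole. The median ratio change was 0.16 for the lid, with 4 of 8 genes above 0, and 0.10 for the ATPase ring. An ATPase gene reached 0.84 without being called. The median was -0.36 for the 3 other base genes, 0.43 for the alpha genes and -0.06 for the constitutive catalytic genes. Psmd3 had footprints of 243 and 239 CPM in basal cells, 189 and 195 CPM with LPS and 214 and 227 CPM with LPS + DEX, with the LPS libraries lowest, and both of its mRNA values with LPS lay above the basal ones. Psmd11, a lid subunit, had mRNA of 55.6 and 70.9 CPM in basal cells, 98.7 and 96.6 CPM with LPS and 85.0 and 78.9 CPM with LPS + DEX, and footprints of 163 to 200.7 CPM in all groups. Psmd8, a lid subunit, had mRNA of 471 and 434 CPM in basal cells and 572 and 529 CPM with LPS, and footprints of 450 and 427 CPM in basal cells and 339 and 361 CPM with LPS. The call of Psmd3 was kept without any 1 of the 12 libraries (-0.89 to -0.67), and that of Psmd2 in 9 of those 12 fits, of Psmd8 in 8, of Psma3 in 7, of Psma2 in 4, and of Psmb1 and Psmd11 in 3 each. Without mRNA basal replicate 1, Psmd11 was at -0.49 and not called, and the other 6 stayed called.

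Which members were called depended on the scaling. The median member changed its ratio by 0.15 and the median gene by -0.34 with total-read scaling, and by 0.45 and -0.06 with median-of-ratios scaling. Under the latter 11 members were called, all higher: Psma2, Psma3, Psma4, Psma5, Psmb1, Psmb3, Psmb7, Psmc1, Psmc6, Psmd7 and Psmd14. Over all genes 5.93% were called higher and 5.32% lower. Psmd3, Psmd2, Psmd8 and Psmd11 then had values of -0.48, -0.32, -0.31 and -0.37, the same sign but not called. The count with total-read scaling was 1 without footprint LPS replicate 1, 2 without either footprint basal library, 3 without mRNA LPS replicate 2 or footprint LPS replicate 2, and 4 without mRNA basal replicate 2 or either footprint LPS + DEX library.

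With LPS + DEX against basal, 4 members changed their ratio, against 14.9% of all genes (2.68% higher and 12.2% lower). Psma3 and Psmb7 rose, by 0.75 ± 0.20 and 0.54 ± 0.14 (adjusted p = 0.0234 and 0.0233). Psmd2 and Psmd3 fell, by 0.91 ± 0.16 and 0.61 ± 0.16 (adjusted p = 0.00441 and 0.0257). Psmd2 had footprints of 492 and 458 CPM in basal cells, 414 and 456 CPM with LPS and 377 and 411 CPM with LPS + DEX, so its group means fell in the order in which those of its mRNA rose. Its call was kept without any 1 of the 12 libraries (-1.04 to -0.79) and with median-of-ratios scaling (-0.58), under which Psmd3 was at -0.28 and not called. Under that scaling 10 members were called, 9 higher and 1 lower, against 5.38% of all genes higher and 3.80% lower. The median member was then at 0.43 against 0.09 with total-read scaling, and the median gene at -0.02 against -0.34. The count was 1 without mRNA LPS + DEX replicate 1, footprint basal replicate 2 or either footprint LPS + DEX library. Psma3 kept its call in 8 of the 12 fits, Psmb7 in 7 and Psmd3 in 6, and all 4 stayed called without mRNA basal replicate 1. Between LPS + DEX and LPS 0 members changed their ratio, against 0.0531% of all genes (0.0106% higher and 0.0425% lower), with 1 member at an unadjusted p under 0.05 and 0 called by limma-voom.

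How reads were assigned is not given for either kind of library, so the order of genes by their ratio is a description. Within each treatment, the ratio of footprints to mRNA described which members held more footprints per mRNA read. It was called for 16 members in basal cells (13 higher and 3 lower), against 50.7% of all genes (33.4% higher and 17.3% lower). With LPS it was called for 23 members (21 higher and 2 lower), against 51.9% (24.8% and 27.1%). With LPS + DEX it was called for 20 (18 higher and 2 lower), against 51.0% (23.8% and 27.2%). In either direction, these were 41.0%, 59.0% and 51.3% of the 39 members, on either side of the background. By direction, calls with LPS and with LPS + DEX were mostly higher among members and split about evenly over all genes. Median-of-ratios scaling kept this, with 21 members higher and 2 lower with LPS, and 18 and 1 with LPS + DEX. Over the 9412 genes it called 2413 higher and 2517 lower with LPS, and 2385 and 2369 with LPS + DEX. The median member had a log2 ratio of 0.15, 0.39 and 0.20 and the median gene of 0.21, -0.06 and -0.08. In basal cells the split depended on the scaling, with 7 members higher and 9 lower (25.1% and 25.2% of all genes) and a median member of -0.13 under median-of-ratios scaling. Without mRNA basal replicate 1, 10 members were called in basal cells, 8 higher and 2 lower.

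Psmc6 had the highest ratio of the members with LPS and with LPS + DEX (log2 1.97 and 1.68 ± 0.23), and 1.13 in basal cells, from mRNA of 98.3 and 109 CPM in basal cells, 89.2 and 63.7 CPM with LPS and 44.7 and 80.2 CPM with LPS + DEX. Psmd11 was highest in basal cells (1.59 ± 0.15, then 0.92 and 1.04). Psmd1, the large base scaffold subunit, was at 1.15, 1.04 and 1.12 ± 0.14, and the alpha subunit Psma1 at 0.97, 1.04 and 0.81 ± 0.14. Psmd14, the lid deubiquitinase, was at 0.74, 1.32 and 1.20 ± 0.17. These 5 genes were called higher in all 3 treatments under both scalings. Other high ratios differed more between treatments. Psmd2, among the 5 highest in basal cells at 0.96, was at 0.35 with LPS and 0.05 with LPS + DEX. Psma4 was at 0.40 in basal cells and 0.94 with LPS + DEX, the highest alpha gene there. At the low end, Psmd8 was at -0.04, -0.65 and -0.40 ± 0.11 and Psmd3 at 0.28, -0.49 and -0.33 ± 0.12, called with LPS and LPS + DEX. The calls with LPS were kept without any 1 library. With LPS + DEX both were lost without replicate 1 of either its mRNA or its footprints (-0.53 to -0.28 for Psmd8, -0.37 to -0.28 for Psmd3). Psmd3 was also lost there without footprint replicate 2 and with median-of-ratios scaling (-0.27). In basal cells the members called lower were Psmb9 (-0.72 ± 0.24), Psma7 (-0.40 ± 0.10) and Psmc3ip (-0.89 ± 0.30), whose mRNA measured 39.3 and 46.6 CPM and footprints 22.9 and 22.4 CPM. All 3 calls were lost without mRNA basal replicate 2. Psmb9 was also lost without mRNA basal replicate 1 or footprint basal replicate 2 (-0.91 to -0.54), Psma7 without footprint basal replicate 1 (-0.47 to -0.33), and Psmc3ip without either footprint basal library (-1.01 to -0.77). Psma8, the alpha subunit of the testis, was the remaining gene of low counts, at 19.7 to 28.7 CPM of mRNA and 21.4 to 35.0 CPM of footprints. Across the 39 members, the log2 ratios in basal cells correlated with those with LPS at Pearson's r of 0.641 (Spearman's rho 0.664) and with those with LPS + DEX at 0.714 (0.709), and LPS with LPS + DEX at 0.898 (0.878). These describe genes that share length, sequence and read assignment between treatments and are no test over samples.

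**Figure D4:**
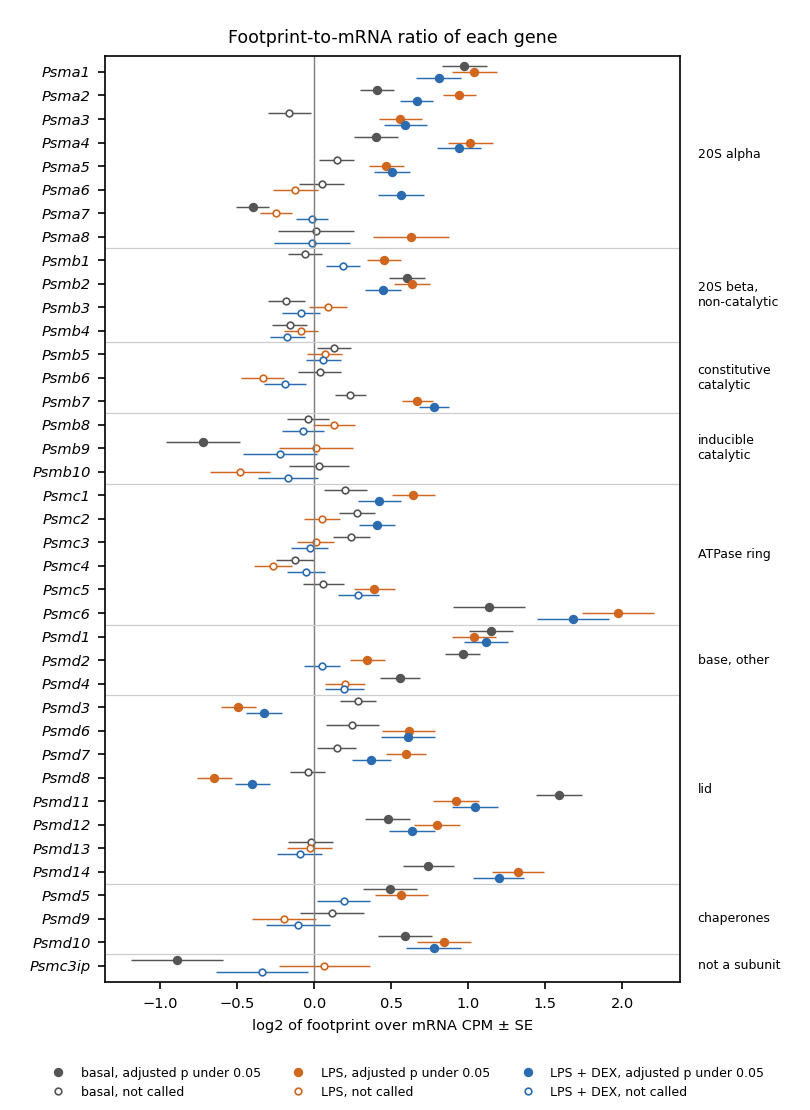
Log2 ratio of footprint to mRNA CPM with its standard error for each gene in basal cells, with LPS and with LPS + DEX, filled where the limma adjusted p was under 0.05. Psmc6, Psmd1, Psmd11, Psmd14 and Psma1 lie right of 0 in all 3 treatments, and Psmd3 and Psmd8 lie left of 0 with LPS and LPS + DEX.

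Of 37 other genes of the pathway tested (activators and inhibitor, assembly chaperones, other 19S subunits, ubiquitin shuttles, the Nrf1 axis and class I antigen processing), mRNA of 6 was called higher and 1 lower with LPS, against 9.03% of all genes higher and 1.68% lower. With LPS + DEX 9 were higher and 1 lower, against 18.5% and 4.23%. With median-of-ratios scaling these counts became 1 higher and 2 lower (2.05% and 3.58% of all genes), and 2 higher and 8 lower (7.63% and 9.02%). The gene that fell in both was Sem1, a small lid subunit whose symbol does not meet the rule. Its mRNA measured 315 and 308 CPM in basal cells, 174 and 145 CPM with LPS, and 128 and 154 CPM with LPS + DEX, changes of -0.97 ± 0.15 and -1.14 ± 0.15 (adjusted p = 0.0209 and 0.00738). Sem1 footprints measured 292 and 224 CPM in basal cells, 283 and 304 CPM with LPS, and 143 and 141 CPM with LPS + DEX. Basal and LPS footprints overlapped, and both LPS + DEX libraries were far below. Against LPS the change was -1.04 ± 0.13 (adjusted p = 0.000207), and the ratio rose with LPS by 1.17 ± 0.21 (adjusted p = 0.004). These Sem1 calls were kept with median-of-ratios scaling and without mRNA basal replicate 1 (-0.95 and -1.12 in mRNA, 1.15 in the ratio). The mRNA call with LPS was lost without either LPS library (-1.10 to -0.84) and that with LPS + DEX without LPS + DEX replicate 1 (-1.27 to -1.01). The footprint call against LPS and the ratio call were kept without any 1 library. None of the activators Psme1, Psme2, Psme3 and Psme4 or the inhibitor Psmf1 was called against basal in mRNA or footprints, except that Psme2 mRNA was called lower with LPS + DEX (-0.78) under median-of-ratios scaling.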

How the data were processed

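RAW264 cells were profiled by mRNA-Seq and Ribo-seq on an Ion PGM sequencer, per the series' design text. The deposited values are CPM per gene plus 1, as their minimum of 1 and their steps of whole reads show. The sources used here give no aligner, genome build or read assignment. Taking 1 off gave CPM, and the steps gave whole reads in 100% of values (tolerance 0.1 read). Symbols were matched from Ensembl identifiers for 9521 of 9621 genes. Tested genes had 10 reads or more, scaled to the median depth, in 2 libraries and 15 or more in all. All 39 members passed in every fit. Limma 3.58.1 (R 4.3.3) was run with a mean-variance trend on log2(CPM + 1), once for the 6 mRNA libraries, once for the 6 footprint libraries and once for all 12 for ratios, with Benjamini-Hochberg adjustment over all genes tested. It was also run on simulated data, with changes larger than most of the changes between treatments named here. That run does not cover the smaller changes.

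Alternatives were median-of-ratios scaling, log2(CPM + 2), no filter on low values, a replicate block, leaving out each library and, added after seeing the data, limma-voom on the recovered reads. A planned edgeR fit was not run, since the deposited unit is not a count. The genes and lists were chosen with earlier results of these data known. The naming rule took up to 5 highest and 5 lowest called members per comparison whose groups did not overlap, and Psmb5 to Psmb10. Values in every library are given for part of these genes. For others only ratios, mRNA alone or a range are given. The part of that rule on footprints per codon was not used here, because no protein table was at hand. Promoter windows came from RefSeq (GRCm38.p6).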

Additional observations from a re-analysis of the deposited data

How the results depend on the processing

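No called value changed sign under any alternative run. With median-of-ratios scaling, the counts of called members in mRNA were 8 for LPS and 13 for LPS + DEX against basal (1 and 7 in the report), footprint counts 4 and 0 (2 and 1), and ratio-change counts 11 and 10 (7 and 4). Limma-voom on recovered reads called 0 members in mRNA with LPS and 2 in footprints with LPS + DEX against basal. Leaving out 1 library at a time gave 0 to 2 called members in mRNA for LPS, 0 to 6 for LPS + DEX, in footprints 1 to 3 for LPS, 0 to 1 for LPS + DEX and 0 to 8 for LPS + DEX against LPS, and in ratio changes 1 to 10 for LPS and 1 to 6 for LPS + DEX. Ratios within a treatment gave 10 to 17 in basal cells, 17 to 24 with LPS and 14 to 20 with LPS + DEX. The counts stayed within 1.5 times with log2(CPM + 2) and with no filter. Groups of 2 libraries of 821946 to 2529666 reads limit these calls, and 3 reads correspond to 1.19 to 3.65 CPM.

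The replicate numbers do not show a pairing in the labels, and the deviations of same-numbered libraries correlated at -0.161 to 0.097 over 9412 genes. With the replicate number as a block, 0 members were called in mRNA with LPS and 4 with LPS + DEX (1 higher and 3 lower), and the other counts stayed within 1.5 times.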

Other observations

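Among ubiquitin shuttles and genes of the Nrf1 axis, the mRNA of Ubqln4, a shuttle that carries ubiquitinated proteins to the proteasome, rose by 1.07 ± 0.20 on the log2 scale with LPS (limma adjusted p = 0.0253), from a mean of 65.5 to 139 CPM over 2 libraries each. Its footprints measured 83.3 CPM in basal cells and 76.9 CPM with LPS, and its footprint-to-mRNA ratio fell by 1.18 ± 0.27 (limma adjusted p = 0.0112). Ddi2, the protease that activates Nrf1, had a mean of 15.8 CPM of mRNA in basal cells and 34.6 CPM with LPS (1.09 ± 0.23, adjusted p = 0.0318), and Nfe2l1, which encodes Nrf1, 66.3 and 112 CPM (0.75 ± 0.16, adjusted p = 0.0332). Footprints of both were not called with LPS (-0.29 ± 0.22 and 0.17 ± 0.15). Ddi2 and Nfe2l1 were the 2 called in mRNA of 6 genes tested in the Nrf1 axis. Nfe2l2, Ngly1, Mafk and Mafg were not called (-0.10, 0.05, 0.56 and 0.47). Of 9 genes listed with the ubiquitin shuttles, 3 were called higher in mRNA with LPS and 0 lower, against 9.03% and 1.68% of all genes. Besides Ubqln4 these were Nploc4 (0.77 ± 0.19) and Vcp (0.49 ± 0.12). Neither Nploc4 nor Vcp was called with median-of-ratios scaling (0.51 and 0.23). Tapbp, which loads peptides onto class I molecules, was higher in mRNA by 1.33 ± 0.29 (adjusted p = 0.0335), the 1 called of 7 class I genes. Its footprints went from a mean of 99.7 to 78.7 CPM and were not called (-0.34 ± 0.14). Tap2, another of the 7, measured 624 CPM of mRNA in basal replicate 1 and 17.9 CPM in basal replicate 2. With LPS it measured 20.7 and 27.2 CPM, and it was not called (-2.13 ± 1.32). The ratios of Tapbp and Ddi2 fell by 1.67 ± 0.31 and 1.38 ± 0.33 (limma adjusted p = 0.0049 and 0.0137). With 1 library left out these ratio changes were -1.98 to -1.36 for Tapbp and -1.61 to -1.14 for Ddi2. The ratio call of Ddi2 was lost without footprint basal replicate 1 or footprint LPS replicate 2. With median-of-ratios scaling the mRNA call of Ubqln4 held (0.81) and those of Ddi2, Nfe2l1 and Tapbp were lost (0.83, 0.49 and 1.07). Without the mRNA library of basal replicate 1, Ubqln4 and Tapbp stayed called in mRNA (0.87 and 1.64), as did the ratio of Ubqln4 (-0.98), while Ddi2 and Nfe2l1 were no longer called (0.95 and 0.65). The mRNA calls of Ubqln4, Ddi2, Nfe2l1, Tapbp, Nploc4 and Vcp were also lost without any 1 of the LPS or LPS + DEX libraries. Over the 6 fits, values were 0.87 to 1.27 for Ubqln4, 0.95 to 1.22 for Ddi2 and 0.63 to 0.87 for Nfe2l1. They were 1.02 to 1.64 for Tapbp, 0.55 to 0.99 for Nploc4 and 0.42 to 0.57 for Vcp. The ratio call of Ubqln4 was lost without mRNA LPS replicate 2 or footprint basal replicate 2 (-1.38 to -0.98).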
